A study of Mus musculus with 8 samples.

Results

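Peaks in coding exons away from transcript starts were taken from 8 ChIP-seq peak lists of mouse embryonic stem cells. A peak was a member when its summit, the position of the highest fragment pileup, lay in the coding sequence of a GENCODE M21 protein-coding gene and when under 20 bp of the peak overlapped windows reaching 1000 bp to either side of any annotated transcript start. The rule gave 7908 peaks of 176687, or 4.48% of all peaks.

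The cells were E14Tg2a, an established mouse embryonic stem cell line, at passages 37 to 40. Pluripotent cells (ESCs) were kept with leukemia inhibitory factor (LIF), and differentiating cells were LIF-free monolayers given 1 µM retinoic acid (RA) for 48 h, which the study called neuronal cells (NCs). Chromatin pooled from 5 plates was precipitated with antibodies to FGFR1, RXR or Nur77 in both states and to histone H3.3 in RA only. FGFR1 in RA had 2 libraries and every other group had 1, so no test between groups was possible and the spread of the 2 FGFR1 RA libraries was the only replicate error. The title of replicate 2 marks it as a second experiment, without saying how its cells were grown apart from those of replicate 1. The 2 libraries differed widely: replicate 1 held 46137 peaks and replicate 2 held 14082. The peak lists carry no read totals, so sequencing depth is unknown. The background level recovered from the peak statistics ranged from 1.27 fragments per kb for H3.3 to 7.09 fragments per kb for RXR in LIF.

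FGFR1 is a receptor tyrosine kinase for fibroblast growth factors that has also been found in the nucleus, where the study follows it beside the nuclear receptors RXR, the partner of the retinoic acid receptors, and Nur77, the product of the immediate early gene Nr4a1. H3.3 is a histone variant placed in chromatin outside replication. Coding exons are mostly poor in CpG dinucleotides, because methylated cytosines are lost by mutation, but some long exons of developmental genes keep CpG islands, and short sequence-specific binding sites also occur inside coding sequence.

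The sequences below are 100 bases centred on member summits, read 5′ to 3′ on the coding strand from GRCm38, the build to which the submitters' mm10 corresponds. Zfp771 and Trim14 had a coding-exon peak in every library, Relb likewise, and Shox2 had one in both FGFR1 RA libraries and none with FGFR1 in LIF. Zfp771 encodes a C2H2 zinc finger protein, Trim14 a tripartite motif protein, Relb an NF-kappaB subunit and Shox2 a homeodomain protein. Capitals mark CpG dinucleotides.
Zfp771, chr7:127254386-127254485, plus strand, exon 2 of 2: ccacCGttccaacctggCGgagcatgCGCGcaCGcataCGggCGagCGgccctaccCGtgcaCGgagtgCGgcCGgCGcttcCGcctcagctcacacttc
Trim14, chr4:46507242-46507341, minus strand, exon 6 of 6: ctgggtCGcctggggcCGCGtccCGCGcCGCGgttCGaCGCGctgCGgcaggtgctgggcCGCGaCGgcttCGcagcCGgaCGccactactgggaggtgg
Relb, chr7:19619660-19619759, minus strand, exon 4 of 12: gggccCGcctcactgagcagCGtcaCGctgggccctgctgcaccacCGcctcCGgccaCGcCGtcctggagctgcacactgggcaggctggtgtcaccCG
Shox2, chr3:66973746-66973845, minus strand, exon 5 of 5: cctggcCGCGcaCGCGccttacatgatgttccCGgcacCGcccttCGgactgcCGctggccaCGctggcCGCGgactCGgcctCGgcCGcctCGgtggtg

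The exon numbers count coding exons of the longest coding transcript over the summit. The 4 windows held 14, 17, 8 and 15 CpG, against a median of 2 in all eligible coding windows of the same length.

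The next windows show members that were strong but differed from these. Capitals again mark CpG. Sfi1 encodes a centrin-binding protein of the centrosome, Thumpd2 a protein with an RNA-binding THUMP domain, and Hist1h1d the linker histone H1.3.
Sfi1, chr11:3144860-3144959, minus strand, exon 16 of 32: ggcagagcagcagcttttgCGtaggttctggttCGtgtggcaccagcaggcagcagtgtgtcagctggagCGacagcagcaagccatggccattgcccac
Thumpd2, chr17:81030848-81030947, minus strand, exon 10 of 10: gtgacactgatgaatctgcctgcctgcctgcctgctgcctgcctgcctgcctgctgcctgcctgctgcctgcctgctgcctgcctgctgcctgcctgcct
Hist1h1d, chr13:23555052-23555151, plus strand, the single exon: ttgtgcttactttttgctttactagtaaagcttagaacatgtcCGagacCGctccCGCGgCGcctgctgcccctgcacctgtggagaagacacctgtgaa

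The Thumpd2 window held 0 CpG and is a short tandem repeat, and its coding annotation comes from a transcript typed as nonsense-mediated decay. The Hist1h1d window runs across the start codon.

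In the last pair the capitals mark a match to the CTCF word and to the NRF1 word, in the strongest member away from RefSeq starts that held each. CTCF is the insulator protein and NRF1 a transcription factor of CpG-rich promoters.
1500009C09Rik, chr15:82259656-82259755, plus strand, exon 2 of 2, CTCF word: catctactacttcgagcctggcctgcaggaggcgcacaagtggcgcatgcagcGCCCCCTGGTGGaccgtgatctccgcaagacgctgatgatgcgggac
Ccdc194, chr8:71521835-71521934, minus strand, exon 3 of 4, NRF1 word: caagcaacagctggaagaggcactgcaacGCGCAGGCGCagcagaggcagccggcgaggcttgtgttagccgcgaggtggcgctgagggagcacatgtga

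The number of coding-exon peaks differed widely among the lists. The LIF list of FGFR1 held 185 members among 11378 peaks (1.63%, exact 95% interval 1.40 to 1.88%). Its RA lists held 2773 of 46137 for replicate 1 (6.01%, 5.80 to 6.23%) and 344 of 14082 for replicate 2 (2.44%, 2.19 to 2.71%). For RXR there were 1475 of 30586 in LIF (4.82%, 4.59 to 5.07%) and 521 of 15224 in RA (3.42%, 3.14 to 3.72%). For Nur77 there were 947 of 22651 in LIF (4.18%, 3.92 to 4.45%) and 1250 of 25995 in RA (4.81%, 4.55 to 5.08%), and for H3.3 in RA 413 of 10634 (3.88%, 3.52 to 4.27%). Intervals of shares here and below are Clopper-Pearson intervals, and all intervals cover counting error only. Coding sequence that lay outside the start windows made up 25086397 bp, or 69.2% of all coding sequence and 0.920% of the assembly, so the share of peaks was 1.77 times that of the assembly for FGFR1 in LIF and 6.53 times for FGFR1 RA replicate 1, with the other 6 libraries between these.

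**Figure D1:**
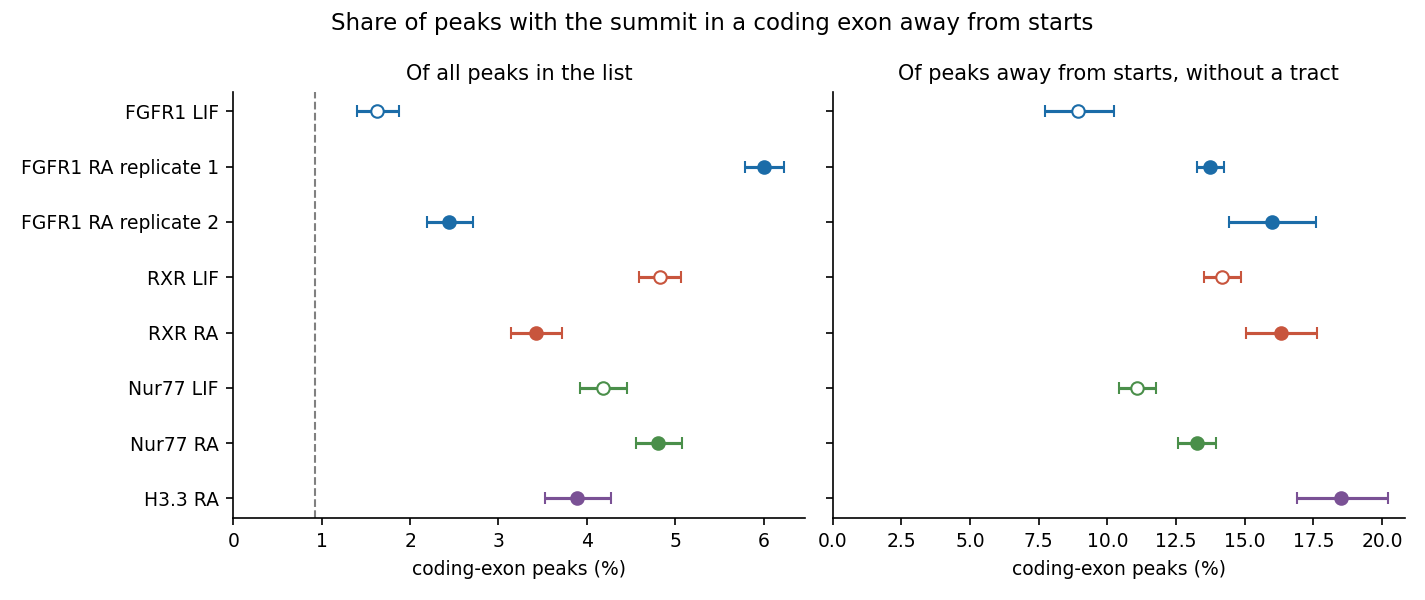
Share of peaks with the summit in a coding exon away from starts, in percent, for each of the 8 libraries. Points are single libraries with exact 95% intervals (open points LIF, filled points RA), the left panel is of all peaks with the share of the assembly (0.920%) as a dashed line, and the right panel is of peaks away from starts without an alternating tract, where each RA library lies above the LIF library of the same antibody.

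The question of whether differentiation shifted these factors toward or away from coding exons gave directions that differed by antibody. For FGFR1 the share was 1.63% in LIF and 4.23% ± 2.52 in RA (SD, n = 2), a difference of 2.60 percentage points that barely exceeded the spread of the RA libraries. Both RA libraries lay above the LIF library, but replicate 2 exceeded it by 0.817 and replicate 1 by 4.38 percentage points. For RXR the share was lower in RA by 1.40 percentage points (95% interval of the difference -1.78 to -1.02), and for Nur77 it was higher by 0.628 percentage points (0.256 to 0.998). The intervals of these differences combine the Clopper-Pearson limits of the 2 libraries by the root of their summed squared distances. With 1 library a state, these intervals hold no replicate error. When each list was cut to its 10634 strongest peaks, the Nur77 difference turned to -0.527 percentage points, the RXR difference shrank to -0.0940 and the FGFR1 difference to 0.578.

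The direction for RXR depended on the denominator. Many peaks of these lists sat on runs of alternating purine and pyrimidine of at least 20 bp, which were rare in coding exons: 0% of members in RXR RA and 1.62% in FGFR1 LIF, the highest, held one. Among peaks away from starts and without such a tract, members were 8.91% of the FGFR1 list from LIF, against 13.8% and 15.98% of its RA lists 1 and 2. The same share was 14.2% in LIF and 16.3% in RA for RXR, 11.1% and 13.2% for Nur77, and 18.5% for H3.3. On this measure, chosen after the data were seen, the share was higher in RA for all 3 antibodies, by 5.95 percentage points for FGFR1 (SD over the RA libraries 1.57), 2.13 for RXR and 2.15 for Nur77.

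Coding-exon peaks were of middle to low strength. Peak strength is given as the −log10 p that MACS2 assigned to the summit against the local background. Its median over members ran from 8.997 for Nur77 in LIF to 11.4 for FGFR1 RA replicate 2, and the median member stood 64.9% to 79.2% of the way down its list. In the same 2 libraries the median was 9.10 and 11.7 for intron peaks without a tract. It was 9.49 and 21.9 for peaks near starts without a tract. Both classes lay above the members in every list, in some by little, as near starts in H3.3 (9.52 against 9.47). Between 1 and 7 members of a list were among its 1000 strongest peaks. A median member had 8 fragments at the summit in RXR RA and H3.3, 19 in FGFR1 RA replicate 2 and 10 or 11 in the other 5 libraries. The local background under members was above the genome-wide level in 77.4% to 98.8% of them, and its median was 1.66 to 2.77 times that level. For peaks near starts without a tract the same ratio was 1.55 to 2.33, and for intron peaks without a tract 1.15 to 1.74. The part that this raised background played in the calling of members was not tested.

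Peaks on either side of the start limit were of like strength. The 41 members with 1 to 19 bp in a start window had a median −log10 p of 10.4, and the 43 coding-exon peaks with 20 to 39 bp, which the rule left out, had 10.3. A second annotation gave other starts for some members. Of the 7908 members, 5.37% had at least 20 bp within 1000 bp of a transcript start in RefSeq, with 11.9% in FGFR1 LIF as the highest and 4.40% in Nur77 RA as the lowest. Hist1h1d is the clearest case, chosen here by its strength: its summit lay 1840 bp from the nearest GENCODE start and 70 bp from a RefSeq start.

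CpG content set members apart from the coding sequence they were drawn from. In 100 bp around the summit, members had a median GC content of 61% in Nur77 LIF to 65% in RXR RA and H3.3, against 51% over 250780 windows that tiled the eligible coding sequence. Windows with 5 or more CpG made up 14.2% of the eligible sequence. They held 65.9% of members in FGFR1 LIF, 64.0% in FGFR1 RA replicate 1, 70.9% in replicate 2, 62.6% and 72.2% for RXR in LIF and RA, 58.4% and 58.3% for Nur77, and 74.3% for H3.3. The density of peaks was higher at each step of CpG count in 5 libraries. In FGFR1 LIF, RXR RA and H3.3 it was slightly lower at 1 CpG than at 0 and higher at each later step. In FGFR1 RA replicate 1 it went from 1.02 peaks per 1000 windows without CpG to 165 per 1000 windows with 10 or more. For RXR in LIF the same 2 values were 0.588 and 107, for FGFR1 in LIF 0.102 and 20.6, for FGFR1 RA replicate 2 0.0767 and 30.7, and for H3.3 0.179 and 43.1. Near-start peaks without a tract were richer still, with a median of 9 to 11 CpG, and intron peaks without a tract had 1 to 4. GC content moved together with CpG content in these windows, no control library was named for the calling, and the part of GC content in the relation was not tested.

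**Figure D2:**
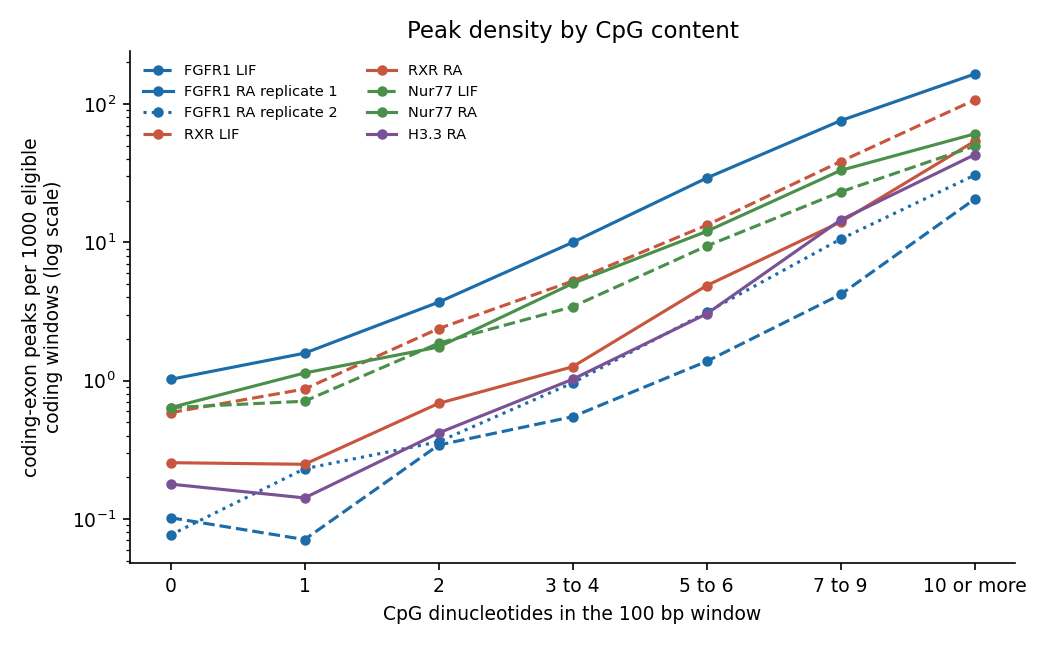
Coding-exon peaks per 1000 eligible coding windows of 100 bp (log scale) by the number of CpG in the window, 1 line for each library (dashed lines LIF, dotted line FGFR1 RA replicate 2). Every line is higher at 10 or more CpG than at 0, for example 165 against 1.02 in FGFR1 RA replicate 1.

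Short sequence words were counted in the same 100 bp windows on both strands. The CTCF word was in 0.0714% of eligible windows and in 27 of 2773 members of FGFR1 RA replicate 1 (0.974%, interval 0.643 to 1.41%). With eligible windows weighted to the CpG counts of these members, the count would have been 3.12, so the observed one was 8.65 times the weighted one. In RXR RA, 5 of 521 members held it, 7.03 times the weighted count, and in the other 6 libraries 1 to 5 members did, at 2.86 to 4.33 times. The NRF1 word, whose letters hold CpG themselves, was in 0.0706% of windows and in 1.22% of members in RXR LIF to 2.91% in FGFR1 RA replicate 2. These counts were 1.63 to 3.75 times the count weighted by CpG. The E-box CACGTG was found at 1.31 to 1.68 times its weighted count in 7 libraries and at 0.595 times in FGFR1 RA replicate 2, which had 7 members with it. TTCAGCACC, a part of the site of the neuronal repressor REST, was in 1 to 8 members of a list, at 1.06 to 5.45 times the weighted count. GGGCGG, the SP1 core, lay at 0.550 to 1.37 times, CCGGAAGT, an ETS word, at 0 to 1.31 times and TGACGTCA, the cAMP response element, at 0 to 1.64 times.

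The words bound by nuclear receptors were less frequent in members than in the eligible sequence, apart from AGGTCA in FGFR1 LIF. AGGTCA, the core that RXR and its partners share, was in 6.58% of eligible windows and in 3.63% (H3.3) to 7.03% (FGFR1 LIF) of members, at 0.715 to 1.40 times the count weighted by CpG. The ratio was above 1 in both Nur77 libraries, FGFR1 LIF and FGFR1 RA replicate 1. AAAGGTCA, the NBRE to which Nur77 binds as a monomer and which contains the former word, was in 0.398% of eligible windows. It was in 2 of 947 members of Nur77 in LIF and in 2 of 1250 in RA, against weighted counts of 2.42 and 3.16. In FGFR1 RA replicate 1 it was in 1 of 2773 members, against 6.47. Only FGFR1 RA replicate 2 lay above its weighted count, with 1 member against 0.733. A match is only a description of these letters in this window.

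Within genes, members lay more often in last exons than the eligible sequence does. The last coding exon of a gene with several held 36.2% of members in FGFR1 LIF, 26.8% in FGFR1 RA replicate 1, 42.7% in replicate 2, 30.4% and 35.7% for RXR in LIF and RA, 27.7% and 26.2% for Nur77, and 35.6% for H3.3, against 18.5% of eligible coding bases. Single-exon genes held 6.40% to 14.6% of members against 5.12% of bases, and internal exons 37.8% to 59.4% against 72.4%. Of eligible windows with 5 or more CpG, 22.8% lay in last exons. The exon under the summit had a median length of 295 bp in FGFR1 RA replicate 1 to 552 bp in FGFR1 LIF, against 185 bp over eligible bases. Most peaks fitted inside the coding sequence: 68.6% to 76.8% lay wholly in it in 7 libraries. In FGFR1 RA replicate 2, whose peaks were wider (median 227 bp against 91 to 135 bp), 42.7% did.

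Of 19193 protein-coding genes with eligible coding sequence, 3641 (19%) had at least 1 coding-exon peak in at least 1 library. The share of genes was 0.933% for FGFR1 in LIF, 11.6% and 1.65% for the 2 FGFR1 RA replicates, 6.67% and 2.55% for RXR in LIF and RA, 4.53% and 5.89% for Nur77, and 2.04% for H3.3. Overlapping members of all lists were merged into 5081 loci. A gene held 1 locus in 2665 cases, at least 2 in 976 and at least 3 in 297. Sptbn4, which encodes beta-IV spectrin of axon initial segments, had the most, with 11 loci along 35 coding exons. Tenm2, a teneurin adhesion protein, and Herc2, a large ubiquitin ligase, had 9 each, and the homeobox gene Zfhx3 had 8.

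These genes have long coding sequences, and their loci were mostly seen in few libraries. Of the 11 Sptbn4 loci, 1 had peaks in 4 libraries, in exon 13, with −log10 p of 8.99 in FGFR1 LIF, 12.3 in Nur77 LIF, 14.1 in FGFR1 RA replicate 1 and 8.60 in H3.3. No Tenm2 locus was seen in more than 2 libraries. Zfhx3 had 1 locus with peaks in 6 libraries, in exon 9, where −log10 p was 20.5 in FGFR1 RA replicate 1, 8.58 in replicate 2, 7.82 in RXR LIF, 6.57 in Nur77 LIF, 11.7 in Nur77 RA and 9.81 in H3.3. Per kb of eligible sequence, Sfi1 had more loci (7 loci, 3.32 per kb) than any of these 4 genes, the highest of which was Sptbn4 with 1.52 per kb.

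Most loci belonged to a single library. Of the 5081 loci, 3389 (66.7%) had a peak in 1 library and 1692 (33.3%, 32.0 to 34.6%) had one in 2 or more, counting any overlap of 1 bp. Peaks in 4 or more libraries were found at 350 loci and in all 8 at 14. CpG content moved with recurrence: the median CpG count was 5 at loci of 1 library, 7 at loci of 4 and 11 at loci of 8. FGFR1 RA replicate 1 had the largest share of loci found in no other library, 52.9% of 2822, and H3.3 the smallest, 15.97% of 432.

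**Figure D3:**
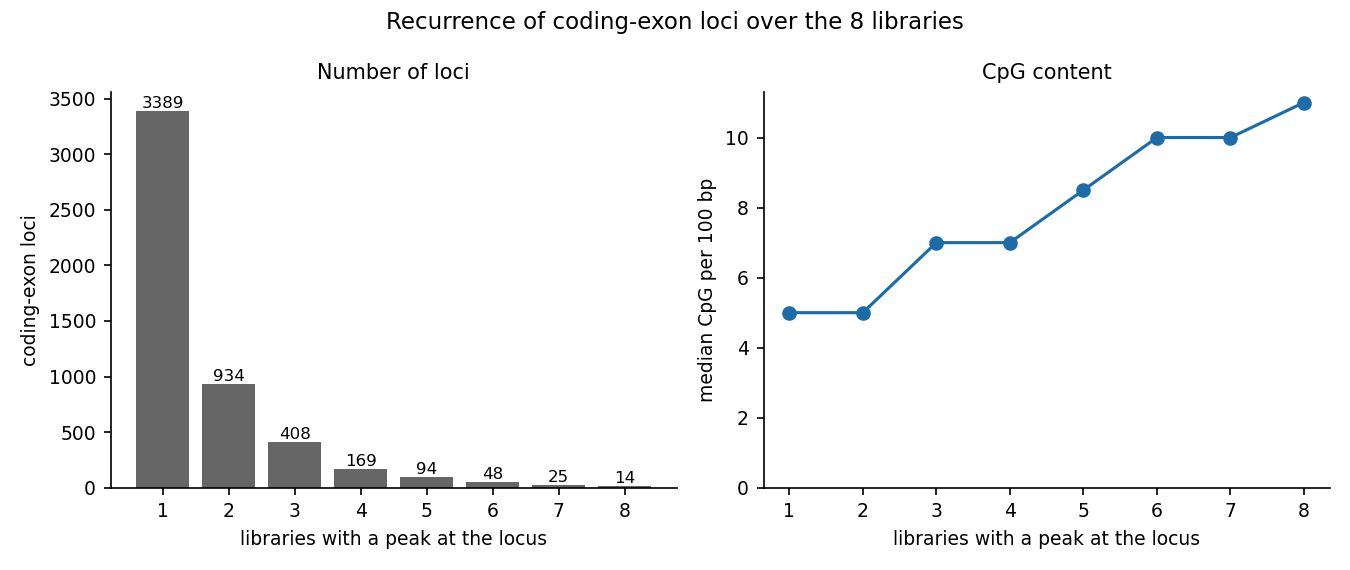
Number of coding-exon loci (left, counts above the bars) and their median CpG count per 100 bp (right) by the number of libraries with a peak at the locus. Most loci (3389 of 5081) belong to 1 library, and the CpG count is 5 at those and 11 at the 14 loci found in all 8.

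Recurrence of coding-exon peaks was compared with that of intron peaks. Of members, 78.9% in FGFR1 LIF overlapped a peak of at least 1 other list, as did 46.1% in FGFR1 RA replicate 1, 61.6% in replicate 2, 56.5% and 74.9% for RXR in LIF and RA, 59.9% and 59.8% for Nur77, and 83.3% for H3.3. Intron peaks without a tract lay lower in each list and ranged from 30.5% in FGFR1 RA replicate 1 to 76.7% in H3.3, and H3.3 had the closest pair of values. Over all intron peaks, tracts included, the order turned for H3.3 (83.6% of intron peaks) and Nur77 RA (60.5%), and the values came close for RXR in LIF (55.8%) and in RA (74.0%). Peaks near starts without a tract were shared more, from 75.4% in FGFR1 RA replicate 2 to 95.9% in FGFR1 LIF.

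The 2 FGFR1 RA libraries give the only measure of repeatability. Of the 344 members of replicate 2, 170 (49.4%, 44.0 to 54.8%) overlapped a peak of replicate 1. The share was 20.8% with both lists cut to their 10634 strongest peaks and 38.4% when summits had to lie within 100 bp. With these members ranked by strength into 4 sets of 86 the share was 62.8% in the strongest set and 52.3%, 45.3% and 37.2% in the following ones. In the other direction, 193 of the 2773 members of replicate 1 (6.96%) overlapped a peak of replicate 2, and among its 693 strongest members 12.8% did. Of intron peaks, 30.8% of replicate 2 overlapped replicate 1 (29.9% without a tract) and 1.29% of replicate 1 overlapped replicate 2 (1.84%). Of peaks near starts, 61.9% of replicate 2 and 50.5% of replicate 1 overlapped the other list. Loci found in both RA libraries numbered 213, of which 155 had no FGFR1 peak in LIF.

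Among those 155 loci, the strongest by the lower of the 2 values were named after the values were seen. Shox2 exon 5 had a −log10 p of 19.7 in replicate 1 and 21.1 in replicate 2, and also had RXR peaks in both states, at 17.5 and 14.7. Asb16 exon 3 followed with 23.5 and 17.99, and Gabbr2, a GABA-B receptor subunit, with 24.9 and 17.6 in its last exon. Maff, a small Maf factor, had 21.4 and 17.1. Asb16 and Maff had peaks in every library but FGFR1 LIF, in LIF with RXR at 16.6 and 9.501 and Nur77 at 17.6 and 7.72. Gabbr2 had RXR at 15.6 and Nur77 at 8.68 in LIF. Klf1, an erythroid zinc finger factor, had 16.8 and 35.4, with RXR at 11.2 and Nur77 at 10.2 in LIF. Cyp26c1, which degrades retinoic acid, had 16.7 and 26.0 in exon 5, with Nur77 in RA at 10.1, H3.3 at 12.3 and no peak there in the 3 LIF libraries. Its exon 3 had another locus, with RXR in LIF at 6.51 and FGFR1 RA replicate 2 at 11.1.

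In the comparison of states, coding loci were carried over to different extents. Of 204 FGFR1 loci in LIF, 133 (65.2%) had a peak in RA replicate 1, and replicate 2 had one at 67 (32.8%). The RXR lists gave 1504 loci in LIF and 547 in RA, with 229 in both, which is 15.2% of the former and 41.9% of the latter. Nur77 had 995 and 1309, with 275 in both, or 27.6% and 21.0%. The lists differ in size, so the 2 shares of each pair differ for that reason alone. Counted by peak, RXR in RA overlapped 13.8% of RXR LIF members, 24.5% of intron peaks (9.58% without a tract) and 27.7% near starts. For Nur77 the same values were 25.6%, 36.2% (20.08%) and 34.5%. FGFR1 RA replicate 1 overlapped 60%, 48.97% (38.8%) and 79.03% of these classes in FGFR1 LIF. Replicate 2 overlapped 29.2%, 1.81% (6.18%) and 74.95%. Leaving out replicate 2, RXR had the lowest share in each class, Nur77 the next and FGFR1 the highest.

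FGFR1 loci met the receptors' peaks as follows. In LIF, 102 (50%) of the 204 FGFR1 loci had an RXR peak, 36.3% a Nur77 peak, 28.9% both and 42.6% neither. Counted by peak, RXR in LIF overlapped 44.9% of FGFR1 LIF members. It overlapped 45.4% of intron peaks, 31.8% of those without a tract and 66.2% of peaks near starts. For Nur77 in LIF the same values were 30.8%, 45.0%, 31.5% and 43.2%. In RA, 72.5% of the 2822 loci of replicate 1 and 71.7% of the 389 loci of replicate 2 had neither, 11.8% and 18.5% had RXR, and 21.5% and 19.3% had Nur77. Loci seen in both RA libraries had RXR in 32.4% and Nur77 in 32.4%, with neither in 52.6%. By peak, RXR in RA overlapped 11.3% of replicate 1 members, 18.04% of intron peaks, 7.36% of those without a tract and 24.9% near starts. For Nur77 in RA these were 20.7%, 28.004%, 15.4% and 26.6%. For replicate 2 they were 15.7%, 11.99%, 10.99% and 25.2% with RXR, and 15.4%, 14.3%, 12.97% and 25.5% with Nur77. In each comparison members lay below peaks near starts and above intron peaks without a tract.

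The strongest members were few genes repeated across lists. Hist1h1d led FGFR1 LIF with a −log10 p of 31.7 and FGFR1 RA replicate 2 with 120, and had 38.4 in replicate 1 at the same locus, with no peak there in the RXR, Nur77 and H3.3 libraries. A second locus in the same exon had 77.5 in replicate 2, 21.4 in FGFR1 LIF, 9.24 in RXR LIF and 8.71 in replicate 1. Only 68.0% and 52.3% of its strongest peak in FGFR1 LIF and in replicate 2 lay in coding sequence. The second member in replicate 2 was the last coding exon of the agouti gene (symbol a), a coat colour signal, at 94.3. It had 25.5 in replicate 1, 13.7 in FGFR1 LIF, 11.6 in RXR LIF and 11.03 in H3.3. Zfp771 was second in FGFR1 LIF at 29.6. Scrt2, a zinc finger repressor of the neural lineage, was second in H3.3 at 23.6, and its exon 2 had peaks in every library but FGFR1 RA replicate 2, between 10.0 and 22.5 elsewhere.

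Sfi1 and Thumpd2 filled the first 2 places in the lists of FGFR1 RA replicate 1, of RXR in both states and of Nur77 in RA, and Sfi1 filled both in Nur77 LIF and the first in H3.3. Sfi1 held 36 members in 7 loci, and exon 16 had −log10 p of 17.1 in FGFR1 LIF, 68.0 and 14.98 in the FGFR1 RA replicates, 45.3 and 25.8 for RXR in LIF and RA, 48.9 and 47.4 for Nur77, and 24.8 for H3.3. The local background under its members had a median of 17.2 to 29.8 times the genome-wide level, against 1.64 to 2.77 times under the other members. Thumpd2 had 57.7 and 46.5 for RXR in LIF and RA, 45.9 in FGFR1 RA replicate 1, 23.7 in FGFR1 LIF, 21.1 and 38.6 for Nur77, 16.4 for H3.3 and no peak in FGFR1 RA replicate 2. Its window was 90.0% repeat-masked in RXR LIF and 98.0% in RXR RA. Over all members such sequence was rare: 0.587% to 2.69% of tract-free members in a list were masked over at least 50% of the window. The part of the raised local background at Sfi1 and of the tandem repeat at Thumpd2 in their values was not tested.

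The 10 most recurrent loci by the rule were 4 in Sfi1 and 1 each in Stk10, Sft2d3, Zfp771, Angptl6, 2310034G01Rik and Trim14. Stk10, a serine/threonine kinase of lymphocytes, had −log10 p between 15.9 and 47.4, but its summit lay in the coding exon in 1 library only. Sft2d3 had a member peak in 2 libraries only, and its strongest member lay 1088 bp from a GENCODE start. Zfp771 exon 2 had 54.8 in FGFR1 RA replicate 2, 29.6 in FGFR1 LIF, 19.7 in replicate 1, 15.5 and 10.8 for RXR in RA and LIF, 10.6 and 8.21 for Nur77 in LIF and RA, and 9.43 for H3.3, so the 3 FGFR1 libraries were its highest. Trim14 exon 6 was more even, from 9.81 in H3.3 to 20.3 in FGFR1 RA replicate 1. Angptl6, Sfi1 exon 10 and 2310034G01Rik lay 328 bp, 197 bp and 32 bp from a RefSeq start. The other loci found in all 8 libraries were in Sarm1, an axon degeneration factor, Kcnj9, a potassium channel, Relb and B3gat2, with the highest values of 15.3 to 22.8 in single libraries. B3gat2 had a member peak in 2 libraries only, and its strongest member lay 1109 bp from a GENCODE start.

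**Figure D4:**
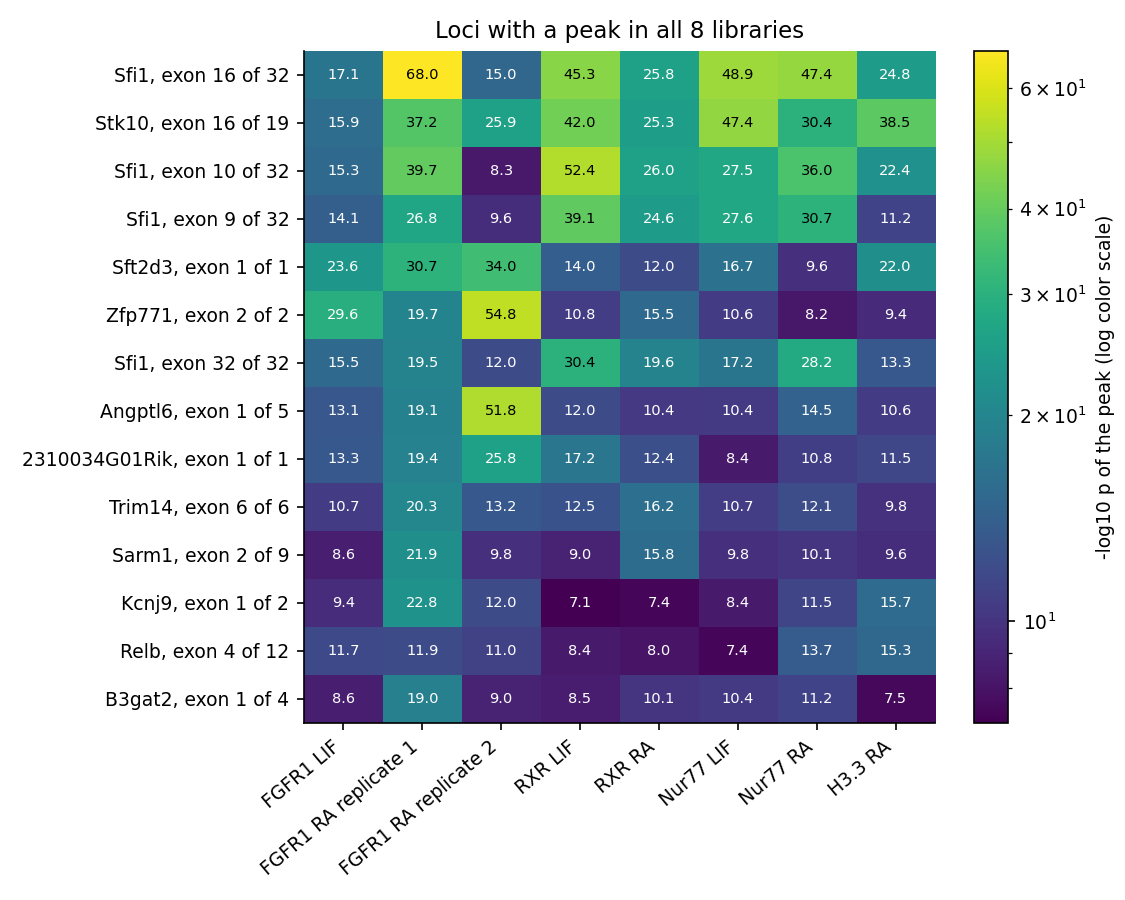
−log10 p of the peak in each of the 8 libraries (columns) at the 14 coding-exon loci found in all of them (rows, by gene and coding exon), with color on a log scale. Sfi1 and Stk10 hold the highest values in the RXR and Nur77 libraries, and Zfp771, Angptl6 and Sft2d3 are highest in FGFR1 RA replicate 2. Any peak that overlaps the locus counts, and the peak met the member rule in 1 library at Stk10 and in 2 at Sft2d3 and B3gat2.

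Gene lists by function are described by their loci per 100 kb of eligible coding sequence, set against 20.1 over all protein-coding genes. Of all eligible genes, 19% had a member. Developmental transcription factors were densest. Hox genes, which pattern the body axis, had 11 loci in 7 of 31 genes (22.6%), 4.95 times the density of all genes, with 2 loci each in Hoxb2, Hoxb3, Hoxa3 and Hoxc9. The Hox peaks were few in any list, 8 in FGFR1 RA replicate 1, none in FGFR1 LIF and 1 to 4 in the other 6 libraries. Both Hoxb2 loci were in exon 2. One had peaks in 4 libraries, at −log10 p of 16.8 in FGFR1 RA replicate 1, 15.97 in Nur77 RA, 11.5 in RXR LIF and 9.92 in Nur77 LIF. The other had 8.52 in RXR RA, 7.96 in FGFR1 RA replicate 1 and 6.95 in FGFR1 RA replicate 2. Sox and forkhead genes had 40 loci in 26 of 56 genes (46.4%, 3.72 times), led by Foxa1 with 4 loci and Foxo3 with 3. Other homeobox genes had 65 loci in 45 of 111 genes (40.5%, 2.82 times), led by Zfhx3 and Evx2. Genes of retinoid and FGF signaling had 18 loci in 13 of 47 genes (27.7%, 2.49 times): Cyp26c1 had 3, Spry4, an inhibitor of FGF signaling, had 2, as had Fgf23 and Cyp26b1, and 9 genes, the retinoic acid receptor genes Rarb and Rarg among them, had 1 each. All 22 Hox peaks were in windows with 5 or more CpG, and such windows made up 68.5% of the eligible Hox sequence against 14.2% over all genes.

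These 4 lists were also compared with all genes in 2 broad classes of CpG content, within which CpG content still differed: the median was 11 CpG for Hox members and 6 over all members. Here and for the lists below, member peaks of all libraries were pooled, so a locus with several peaks counted several times and the values are not shares of windows. In windows with 5 or more CpG there were 142 member peaks per 1000 windows over all genes, 297 in Hox genes, 263 in Sox and forkhead genes, 192 in other homeobox genes and 192 in retinoid and FGF genes. Windows with fewer CpG held 13.4 per 1000 over all genes, 35.1 in Sox and forkhead genes, 41.6 in other homeobox genes, 19.7 in retinoid and FGF genes and 0 of 34 windows in Hox genes.

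Among the neural and adhesion lists, clustered protocadherin genes, whose variable exons are long single exons for cell recognition, had 44 loci in 29 of 55 genes (52.7%, 2.51 times), led by Pcdha11 and Pcdha5. They had 30 peaks in FGFR1 RA replicate 1, 19 in Nur77 LIF, 18 in RXR LIF, 16 in Nur77 RA, 3 in FGFR1 LIF, 2 in RXR RA and none in H3.3 or in FGFR1 RA replicate 2. Axon guidance genes had 53 loci in 38 of 69 genes (55.1%, 1.64 times), led by Slit3 and Ntn4. In windows with 5 or more CpG, axon guidance genes had 135 peaks per 1000, against 142 over all genes, and with fewer CpG 20.3 against 13.4. The list of voltage-gated ion channel genes also held Kcnk, Kcnj and Kcnn potassium channel genes, which are not voltage-gated. It had 68 loci in 43 of 98 genes (43.9%, 1.57 times), led by the calcium channel genes Cacna1i and Cacna1c, with 190.2 and 14.9 peaks per 1000 windows in the same CpG classes. Protocadherin genes had 282 and 50.4.

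Other lists lay at or below the density of all genes. C2H2 zinc finger genes had 152 loci in 103 of 456 genes (22.6%, 1.00 times), led by Zfp697 and Zfp64. By CpG class they departed in opposite directions, with 219.8 peaks per 1000 windows at 5 or more CpG against 142 over all genes, and 9.27 against 13.4 below. Lysine methyltransferase and demethylase genes had 29 loci in 19 of 63 (30.2%, 0.844 times; 120.2 and 10.9 per 1000 windows), led by Prdm10 and Prdm13. Prdm13, needed for spinal and retinal neurons, had 1 locus with peaks in 5 libraries, the highest at 17.7 in FGFR1 RA replicate 1. Collagen genes had 23 loci in 17 of 44 (38.6%, 0.655 times), with 97.1 and 6.57 peaks per 1000 windows in these classes, led by Col16a1 and Col6a2. Core pluripotency genes had 3 loci in 3 of 13 genes (23.1%, 0.786 times): Esrrb, Tfcp2l1 and Nanog. The last exon of Esrrb had a peak in FGFR1 RA replicate 1 at 16.3 and in Nur77 RA at 6.27, and the peaks of Tfcp2l1 (10.4, RXR LIF) and Nanog (6.81, FGFR1 RA replicate 1) were each in 1 library. Olfactory and vomeronasal receptor genes had 5 loci in 4 of 444 genes (0.901%, 0.0610 times), led by Olfr95 and Olfr982. Olfr95 had 1 locus with peaks in 5 libraries, the highest at 15.99 in RXR LIF, and of the windows of the whole list 14 (0.354%) held 5 or more CpG, with 8 of its 11 peaks. The list of genes named Rpl or Rps had 5 loci in 4 of 54 genes (7.41%, 0.987 times), but these were Rps6ka5, Rps6kc1 and Rps6ka4, which are kinases and not ribosomal proteins, and Rpl3l.

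**Figure D5:**
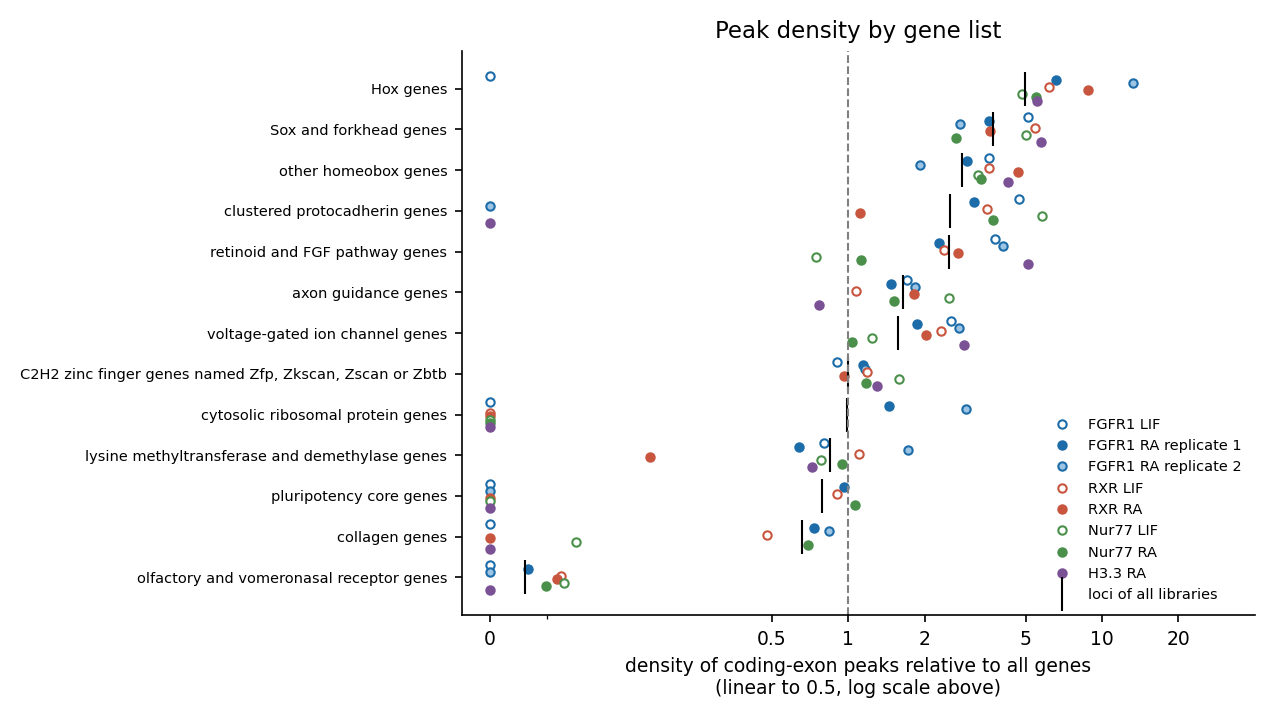
Density of coding-exon peaks in 13 gene lists relative to all protein-coding genes (linear to 0.5, log scale above), 1 point for each library and a black bar for the loci of all libraries together. The bars of Hox genes (4.95), Sox and forkhead genes (3.72) and other homeobox genes (2.82) lie above 1, and olfactory and vomeronasal receptor genes (0.0610) lie far below.

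Genes with a coding-exon peak often also had a peak of the same library at a start of their own, in some lists more often than other genes. This held for 62.0% of such genes against 53.7% of other genes in FGFR1 RA replicate 1, 51.6% against 45.6% in RXR LIF, 30.9% against 27.3% in Nur77 LIF, 30.4% against 27.8% in Nur77 RA and 19.6% against 16.7% in H3.3. The order was the opposite in FGFR1 LIF (15.6% against 18.3%), RXR RA (24.5% against 25.3%) and FGFR1 RA replicate 2 (43.7% against 53.3%).

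The genes of the precipitated proteins held little. Rxra had 1 member, in H3.3 at a −log10 p of 6.73 in its last exon, and Nr4a1 had 1, in FGFR1 RA replicate 1 at 8.76. Fgfr1, H3f3a and H3f3b had none in any of the 8 lists. Of all members, 53 lay in the coding sequence of 2 genes at once and 437 (5.53%) had a gene on the other strand over the summit, so their gene is uncertain.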

How the data were processed

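ChIP-seq of FGFR1, RXR, Nur77 and H3.3 was analysed from 8 peak lists in narrowPeak layout, 1 for each library. Per the study's methods and the submitters' processing notes, the authors aligned reads to mm10 with Bowtie 1.0, kept reads that aligned once, and called peaks in each library with MACS2, with no control library named. The authors' deposited values are, per peak, a fold enrichment at the summit over local background, a −log10 p-value, a −log10 q-value, a score that is 10 times the −log10 p without decimals, and the summit offset. Libraries were not pooled, and peaks in sequence that aligns to several places are not seen.

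Members, classes and gene assignments were computed with Python 3.11.15, numpy 2.4.6, pandas 2.3.3 and pysam 0.24.0, GENCODE M21 and the GRCm38.p6 genome, the latter being the build of the files. Start windows were 1000 bp, the overlap limit 20 bp, the sequence window 100 bp and the tract minimum 20 bp. Fragments and local background at each summit were solved from fold and p under a Poisson model, which recovered the deposited −log10 p to within 0.000119. Shares have exact Clopper-Pearson 95% intervals (SciPy 1.17.1). Scripts were tested on simulated data. The members and the gene lists were chosen with earlier results of these data known. Genes named are the 2 strongest members of each list, the 10 loci in the most lists, the 5 genes with the most loci (1 of them is not reported here), the 2 leading genes of each of 13 lists and the genes of the targets, plus those said to be chosen after their values were seen. In all, 13 planned settings and 4 added after seeing the data were tried.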

Additional observations from a re-analysis of the deposited data

Results flagged for a closer look

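The change in coding-exon share from LIF to RA went in opposite directions for different antibodies. It was -1.40 percentage points for RXR, 0.628 for Nur77, and 4.38 and 0.817 for FGFR1 RA replicates 1 and 2, both set against the same LIF library. These values stand out because the single RXR comparison went one way, and the single Nur77 comparison and both FGFR1 RA libraries went the other way. The difference between antibodies was not tested, since neither receptor was replicated in either state. The number of peaks in the lists moved with it: the RXR list was smaller in RA (15224 against 30586 peaks), while the Nur77 and both FGFR1 lists were larger. The part of list size in the directions was not tested beyond the cut to equal numbers, where the differences were -0.0940 for RXR, -0.527 for Nur77 and 0.578 for FGFR1 over both RA libraries. Among peaks away from starts without a tract, a measure chosen after the data were seen, every difference was positive. It was 2.13 for RXR, 2.15 for Nur77 and 5.95 for FGFR1.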

How the results depend on the processing

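The 3 differences between RA and LIF kept their direction in most settings. With each list cut to its 10634 strongest peaks, the Nur77 difference turned to -0.527 percentage points and the RXR difference shrank to -0.0940 and the FGFR1 difference to 0.578, while the share of loci in 2 or more libraries was 26.5% and the share of replicate 2 members found in replicate 1 was 20.8%. With tract peaks left out, RXR moved to -0.152, Nur77 to 1.55 and FGFR1 to 1.71. Among peaks away from starts without a tract, chosen after seeing the data, FGFR1 moved to 5.95, Nur77 to 2.15, and RXR turned to 2.13. At a −log10 p of at least 10, recurrence was 25.1% and the replicate share 39.6%. Summits within 100 bp gave 31.4% and 38.4%, and overlap of at least 50% of the shorter peak gave 43.3% for replicates. Start windows of 500 bp gave 34.8% recurrence, and counting only coding-exon peaks of each library, also chosen after seeing the data, gave 29.7%. Without either FGFR1 RA replicate in turn, the FGFR1 difference ranged from 0.817 (without replicate 1) to 4.38 and recurrence from 29.1% to 32.7%. No paired analysis was possible because each group but FGFR1 in RA has 1 library. A median member rested on 8 to 19 fragments at its summit, and sequencing depth is unknown. The cause of these shifts was not tested.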
